A study of Mus musculus with 8 samples.

Results

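The proteins of the mitochondrial ribosome were followed in the cerebral cortex of newborn mice that lacked estrogen-related receptor gamma (ERRγ) or were wild type. Members were all array probes whose gene symbol began with Mrpl or Mrps and a digit, which gave 108 of the 25697 probes, for 75 of the 16561 named genes. The large subunit (Mrpl symbols) had 68 probes for 47 genes and the small subunit (Mrps symbols) 40 probes for 28 genes. The study measured total RNA from cortex at postnatal day 0, an age chosen by the submitters because the tissue then consists mainly of the neuronal lineage. It compared wild-type mice with ERRγ-/- mice, with 2 biological samples of each genotype. Every sample was read on a pair of Illumina bead arrays, here called its first array and its b array, the latter a technical replicate. The strain and sex of the mice, the extent of the null allele, and whether a sample was 1 animal or a pool are not stated in the labels. The p-values therefore rest only on variation between these samples, with the variance of each probe drawn towards that of all probes.

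Mitochondrial ribosomes make the few proteins encoded by mitochondrial DNA, all of them core subunits of the respiratory chain and ATP synthase. Their RNA comes from mitochondrial DNA, whereas every ribosomal protein is encoded in the nucleus, made in the cytosol and imported. The small subunit binds the messenger RNA and reads the codons, and the large subunit joins the amino acids and passes the new chain through an exit tunnel towards the inner membrane. Part of the proteins have a counterpart in the bacterial ribosome, and the rest were added during the evolution of mitochondria. ERRγ is a nuclear receptor known as an activator of nuclear genes for oxidative metabolism, so the comparison asked whether these genes differ in cortex without it.

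Signals are normalized log2 intensities, and the 2 arrays of a sample were averaged. A difference is the ERRγ-null mean less the wild-type mean on that scale. A probe was kept for the test when at least 4 of the 8 arrays gave it a detection p-value under 0.05, and called when limma's adjusted p over all 11568 kept probes was under 0.05. Of the member probes, 89 were kept, for 67 genes, 40 of the large and 27 of the small subunit. Each gene was described by its brightest kept probe, and 64 of the 67 were above background on all 8 arrays. Signals of different probes depend on the probe, and no member's level was set against another's. Between 11022 and 12013 probes were above background on an array, and precision is limited by having 4 samples in all. The targeted gene, Esrrg, was read by 1 probe that was not above background on any array (detection p from 0.357 to 0.761), with signals of 4.92 and 4.93 in wild type and 4.97 and 4.92 in null samples, so that this probe does not check the genotype labels. Of the 11 neuronal markers listed for cortex, 8 had a probe, 7 were kept and 6 were above background on all arrays. The 7 kept were Dcx, Tubb3, Stmn2, Bcl11b, Slc17a7, Neurod2 and Tbr1, not all of which are particular to cortex. Of 3 thalamic and 4 choroid plexus markers, 0 were above background on all arrays.

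Transcripts of the mitochondrial ribosome were detected in both genotypes, and none was called as different. Of 89 member probes, 0 were called by limma, against 1 of all kept probes (0.00864%), and the smallest adjusted p among the members was 0.589. At an unadjusted p under 0.05 there were 4 member probes, 4.49% of them against 7.07% of all kept probes. They were 2 higher probes, where the share of all kept probes was 3.57%, and 2 lower ones, where it was 3.5%. Of these 4, a higher probe of Mrps25 and a lower probe of Mrpl49 were kept through the genotype in which they are brighter, and with detection required on all 8 arrays there were 0 higher and 1 lower (6.74% of all probes then tested were at an unadjusted p under 0.05). Without wild-type sample 1 there were 2 higher and 0 lower member probes (6.87% of all probes). Without wild-type sample 2 there were 4 higher and 1 lower (6.66%). Without ERRγ-null sample 1 there were 1 higher and 2 lower (5.52%), and without ERRγ-null sample 2 there were 1 higher and 0 lower (7.58%). At the brightest probe of each gene 1 of 67 genes had an unadjusted p under 0.05, against 6.46% of all kept genes. The 1 probe called among all was that of Xlr4a, which is no member.

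The precision was enough to bound the differences of most members. Standard errors of the 67 genes ran from 0.16 to 0.22 with a median of 0.16, against 0.17 over all kept genes. They were alike because limma drew the variances towards that of all probes. Whether an interval lay within a limit therefore depended mainly on the size of the difference. The 95% confidence interval of the difference lay between -0.5 and 0.5, a fold of 1.41 in either direction, for 50 of the 67 genes (74.6%), against 55.8% of all 8098 kept genes. Each of the 67 intervals lay between -1 and 1, and their outermost limits were -0.69 and 0.69. The intervals are for single genes and not adjusted for their number.

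**Figure D1:**
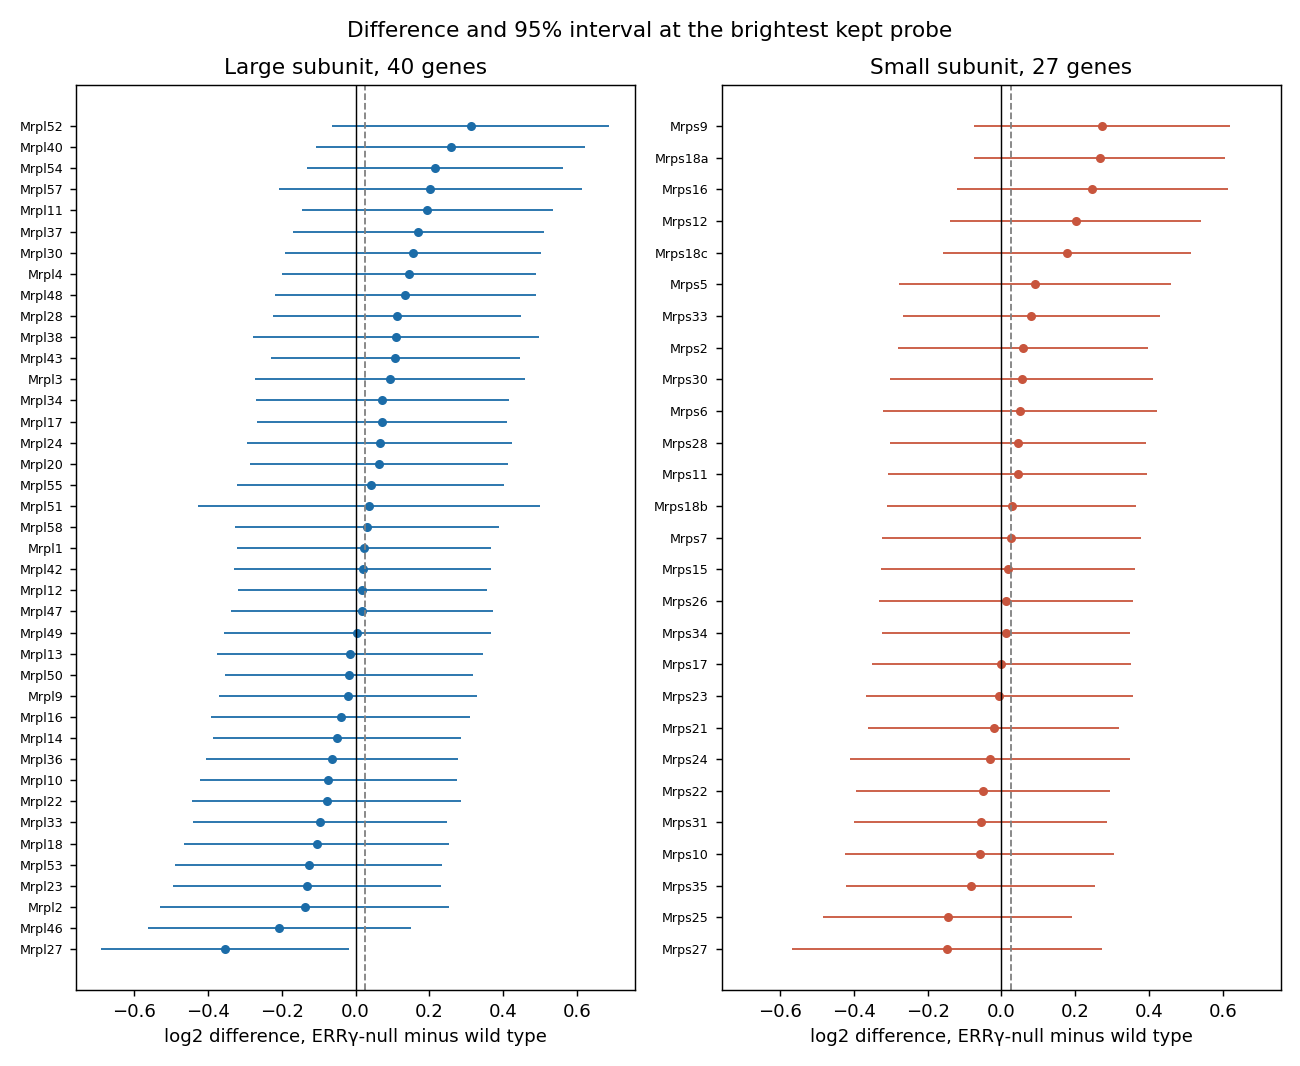
Difference between ERRγ-null and wild-type cortex for the 67 mitochondrial ribosomal protein genes at their brightest kept probe, large subunit left and small subunit right. Points are log2 differences, lines are 95% confidence intervals from limma, the solid line is 0 and the dashed line the median of the subunit (0.03 in each). Only the interval of Mrpl27 lies wholly on 1 side of 0, from -0.69 to -0.02, and that difference was not called after adjustment.

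The large subunit had a median difference of 0.03 over 40 genes, with 25 above and 15 below 0, and a range from -0.35 to 0.31. The small subunit had a median of 0.03 over 27 genes, with 18 above and 9 below 0, and a range from -0.15 to 0.27. Over all 8098 kept genes the median was 0.00 and 50.6% were above 0, against 64.2% of the 67 members (43 genes). With the arrays scaled to 1 median in place of quantile normalization, the median of all genes moved to 0.17 and 64 of 67 members were above 0, with subunit medians only 0.05 (large) and 0.04 (small) beyond that of all genes. The spread of the differences was smaller among the members, with an SD of 0.12 against 0.20 over all genes. The members were also brighter, with a median signal of 9.75 against 8.54. Between arrays of the same sample they varied less, with a median SD of 0.24 against 0.28. The part of brightness in the smaller spread, and in the larger share of narrow intervals above, was not tested. The samples of the genotypes did not overlap for 21 of the 67 genes, 16 of them higher and 5 lower in ERRγ-null cortex. That is 31.3% of the members, where it is 35.1% of all kept genes, with 17.7% higher and 17.3% lower. These are counts with no test of the list.

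The mean signal of the large subunit genes was 9.66 and 9.64 in wild type and 9.69 and 9.67 in null samples. For the small subunit it was 9.52 in each wild-type sample, 9.61 in the first null sample and 9.51 in the other. The null samples thus lay just above both wild-type samples for the large subunit, by less than the difference between the arrays of ERRγ-null sample 1 (9.68 and 9.71), and lay apart from each other for the small subunit. Without ERRγ-null sample 1 the small subunit median was -0.01 and 33 of 67 members were above 0. Without ERRγ-null sample 2 that median was 0.11. The large subunit median was 0.08 without wild-type sample 1 and -0.01 without wild-type sample 2, when again 33 of 67 members were above 0. In bulk tissue, fewer cells of a type and less RNA per cell cannot be told apart. Of 7 striatal marker symbols, with Drd1 listed also under its older name Drd1a, 4 were kept and 3 were above background on all arrays. Their mean signals were 7.64 and 7.63 in wild type and 7.90 and 7.72 in null samples. The neuronal markers listed for cortex (7 kept) had 10.44 and 10.47 in wild type and 10.55 and 10.47 in null samples. In both lists ERRγ-null sample 1 was the highest and the samples did not overlap, which also held for 35.1% of all kept genes. In the neuronal list this was by a narrow margin, with 10.468 in wild-type sample 2 and 10.474 in ERRγ-null sample 2. The same sample was the highest for both subunits, for the large one only just above ERRγ-null sample 2. It was also the highest for hippocampal (7.12, wild-type sample 1 7.03) and erythroid markers (9.19, wild-type sample 1 9.15). For the thalamic markers, of which only Tcf7l2 was kept, it had 6.39 and wild-type sample 1 had 6.30. ERRγ-null sample 1 was not the highest for astrocyte (8.66, wild-type sample 1 8.90) or microglial markers (6.53, wild-type sample 1 6.67). Nor was it for oligodendrocyte lineage (8.86, ERRγ-null sample 2 9.07) or endothelial markers (7.59, ERRγ-null sample 2 7.65). Of the choroid plexus markers only Sostdc1 was kept, at 6.17 and 6.58 in wild type and 6.74 and 7.18 in null samples, which did not overlap either. Meningeal markers, of which Igf2 and Dcn were kept out of 6, had 8.27 and 8.09 in wild type and 7.87 and 9.24 in the null samples, which differed from each other. The part of other tissue and cells in the subunit values was not tested.

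**Figure D2:**
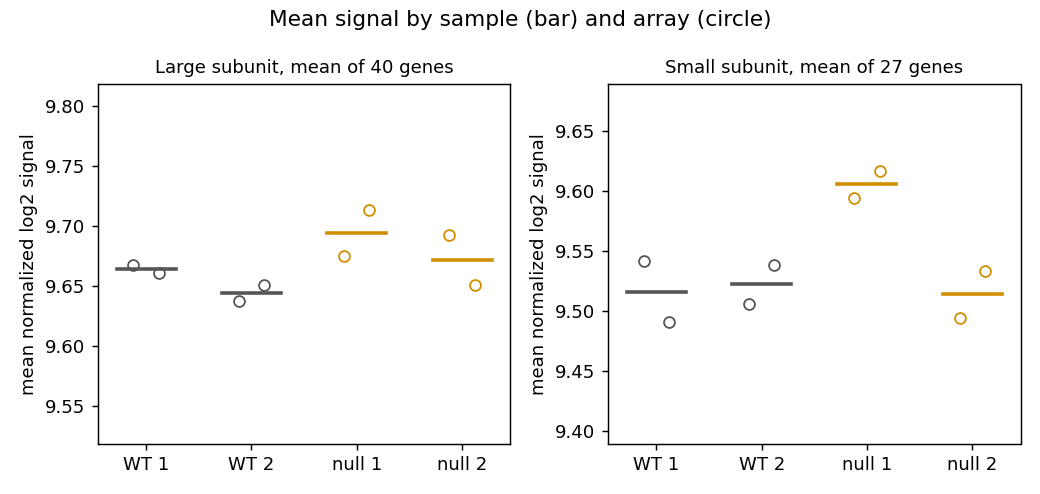
Mean normalized log2 signal of the large (40 genes, left) and small (27 genes, right) subunit in each sample. Horizontal bars are samples, open circles their first (left) and b (right) arrays, wild type (WT) in grey and ERRγ-null (null) in orange. ERRγ-null sample 1 stands at 9.61 for the small subunit, and the other 3 samples between 9.51 and 9.52.

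Among large subunit genes the lowest difference was that of Mrpl27, whose bacterial counterpart lies next to the peptidyl transferase centre, where amino acids are joined. Its signal was 9.73 and 9.69 in wild type and 9.36 and 9.35 in null samples. The 4 wild-type arrays lay between 9.63 and 9.82 and the 4 null arrays between 9.29 and 9.41, so that neither samples nor arrays overlapped. Mrpl27 had a mean of 9.71 ± 0.03 in wild type and 9.36 ± 0.00 in null cortex (SD, n = 2 each), a difference of -0.35 (SE 0.16, unadjusted p = 0.0410, limma adjusted p = 0.673). The SE exceeds these SDs because limma drew the variance towards that of all probes. The difference of Mrpl27 lay below 0 in each of 19 alternative analyses that gave it a value, from -0.42 to -0.16, and was called in none. Those that altered only the filter, the variance model, the blocking or the threshold return the main difference by construction. Only another normalization or offset, the use of 1 array per sample or the loss of 1 sample could have changed its sign. The RefSeq promoter window of Mrpl27 (GRCm38.p6, chr11:94653541-94653840, plus strand, 250 bases before to 50 after the gene start) is shown because Mrpl27 had the smallest p of the members at the brightest probe, with an ETS/GABP motif (CCGGAAG) and a YY1 motif (AANATGGCG) in capitals.
Mrpl27: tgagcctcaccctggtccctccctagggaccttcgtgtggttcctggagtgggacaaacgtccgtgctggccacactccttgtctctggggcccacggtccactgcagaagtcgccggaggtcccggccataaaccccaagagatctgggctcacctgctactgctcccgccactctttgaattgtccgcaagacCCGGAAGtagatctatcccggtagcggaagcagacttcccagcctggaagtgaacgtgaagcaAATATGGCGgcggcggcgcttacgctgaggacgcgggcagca

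The other large subunit genes with non-overlapping samples and a lower signal in ERRγ-null cortex were Mrpl46 and Mrpl14. Mrpl46, a protein of the mitochondrial ribosome without a bacterial counterpart, had signals of 10.07 and 10.08 in wild type and 10.02 and 9.72 in null samples. ERRγ-null sample 2 was the low one, and the null mean was lower by less than 2 SE (difference -0.21, SE 0.17, limma adjusted p = 0.890). Mrpl14, which has a bacterial counterpart, differed by -0.05, and its wild-type sample 1 had 9.57 and 9.05 on its 2 arrays, a gap larger than the difference.

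Higher signals without overlap and above background on all arrays were led in the large subunit by Mrpl52, Mrpl40, Mrpl54 and Mrpl11. Mrpl52, specific to mitochondria, had signals of 10.65 and 10.23 in wild type and 10.72 and 10.78 in null samples. Wild-type sample 2 was the low one on both of its arrays, and wild-type sample 1 lay close to the null samples. The difference of Mrpl52 was 0.31 (SE 0.18, limma adjusted p = 0.787). Mrpl40, also specific to mitochondria, had signals of 9.29 and 9.61 in wild type and 9.79 and 9.62 in null samples, and wild-type sample 1 was the low one. The difference of Mrpl40 was 0.26 (SE 0.17, limma adjusted p = 0.831). Mrpl54 differed by 0.21, with 9.28 and 9.47 in wild type and 9.64 and 9.53 in null samples. Mrpl11, counterpart of a bacterial protein at the base of the stalk where translation factors bind, differed by 0.19, with 9.60 and 9.70 in wild type and 9.80 and 9.89 in null samples. The last pair of genes had samples of 1 genotype close to those of the other, and adjusted p of 0.863 and 0.892 by limma.

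**Figure D3:**
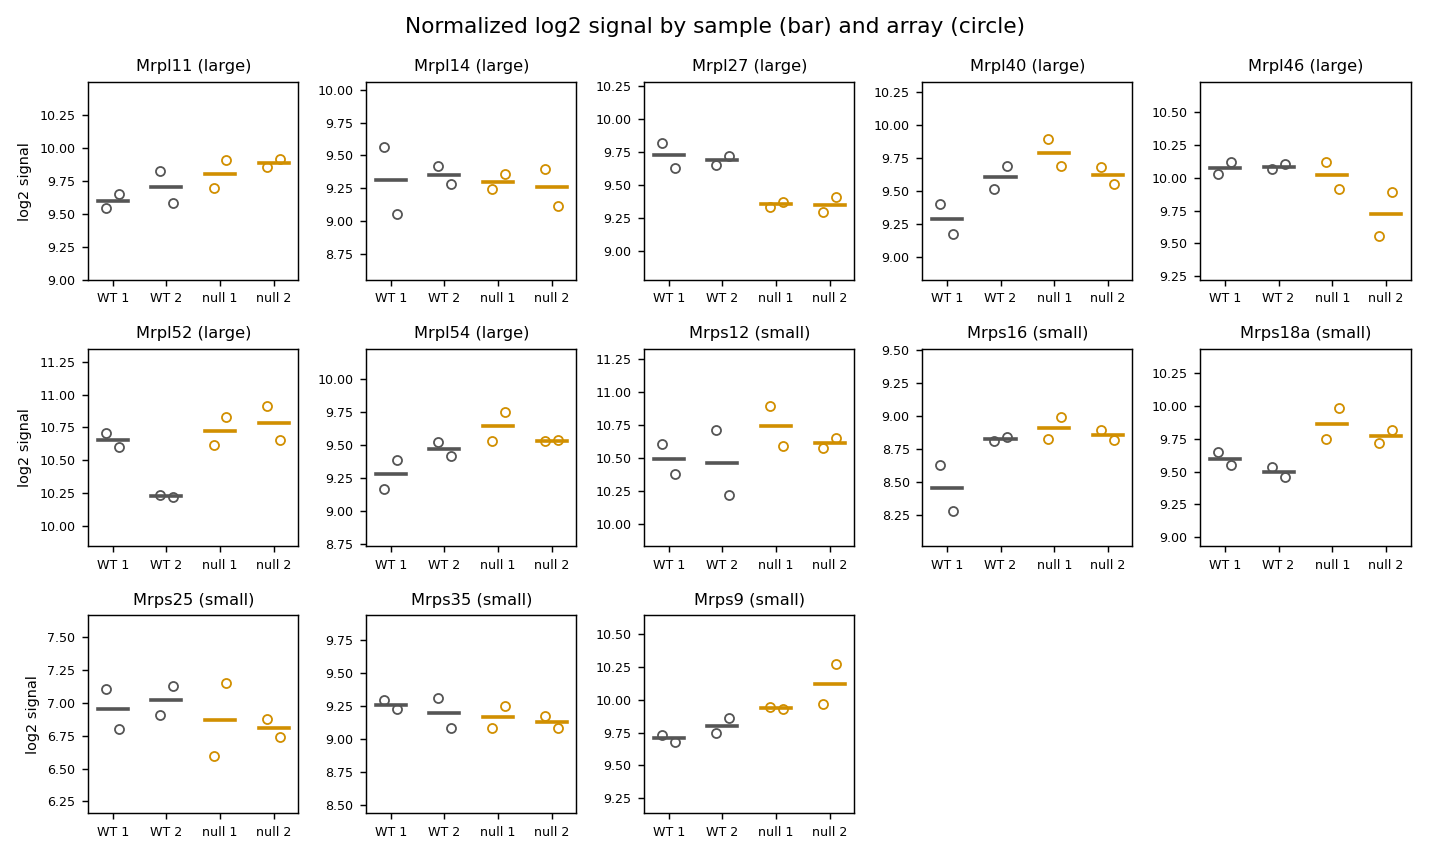
Normalized log2 signal of 13 members whose samples did not overlap between the genotypes and which had the largest differences of their subunit and direction. Horizontal bars are samples, open circles are the first (left) and b (right) arrays of each, wild type (WT) in grey and ERRγ-null (null) in orange, and each vertical axis spans the same range. For Mrpl27, Mrpl54, Mrps9 and Mrps18a the arrays of the genotypes also do not overlap. In the panels other than Mrpl27, Mrpl40, Mrpl52 and Mrps18a, so also for Mrpl54 and Mrps9, the 2 arrays of at least 1 sample lie farther apart than the genotype means.

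Further large subunit proteins listed for their roles, besides Mrpl11 above, had differences between -0.13 and 0.09. Mrpl12, whose bacterial counterpart forms the mobile stalk and whose product is also known to bind the mitochondrial RNA polymerase, had signals of 10.32 and 10.25 in wild type and 10.33 and 10.28 in null samples. The samples of the genotypes interleaved, and the difference was 0.02 with a 95% interval from -0.32 to 0.36. Mrpl10, the anchor of that stalk, differed by -0.07 and at a second probe by 0.08, and Mrpl1, of the stalk at the exit site of transfer RNA, by 0.02. Mrpl3, near the peptidyl transferase centre, differed by 0.09 and at a second probe by -0.13. Mrpl23, at the exit of the peptide tunnel, had 11.33 and 11.45 in wild type and 11.42 and 11.09 in null samples, where ERRγ-null sample 2 was the low one (difference -0.13, 95% interval from -0.50 to 0.23). Mrpl47, a counterpart of another bacterial tunnel protein, differed by 0.02.

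In the small subunit Mrps9 and Mrps18a had the highest differences. Mrps9, whose bacterial counterpart reaches towards the transfer RNA in the peptidyl site, had signals of 9.70 and 9.80 in wild type and 9.94 and 10.12 in null samples. Both null samples were above both wild-type samples, and ERRγ-null sample 2 rested on arrays of 9.96 and 10.27. The difference of Mrps9 was 0.27 (SE 0.16, limma adjusted p = 0.805). Mrps18a belongs to a protein family with several members in mammalian mitochondria, and its product is known to sit in the large subunit despite the name. It had 9.60 and 9.50 in wild type and 9.86 and 9.77 in null samples, with wild-type arrays between 9.46 and 9.65 and null arrays between 9.72 and 9.98. The difference of Mrps18a was 0.27 (SE 0.16, limma adjusted p = 0.805). Its relatives Mrps18b and Mrps18c differed by 0.03 and 0.18, and the samples of Mrps18b interleaved.

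Mrps16 and Mrps12 followed. Mrps16, a protein needed for building the small subunit and known from human mitochondrial disease, had signals of 8.45 and 8.83 in wild type and 8.91 and 8.86 in null samples. Wild-type sample 1 was the low one, and wild-type sample 2 lay next to the null samples (difference 0.25, SE 0.17, limma adjusted p = 0.844). Mrps12, of the decoding centre, had 10.49 and 10.47 in wild type and 10.75 and 10.62 in null samples (difference 0.20, SE 0.16, limma adjusted p = 0.882). The arrays of wild-type sample 2 were at 10.71 and 10.22 for Mrps12, so that its arrays overlapped with those of null cortex.

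The further small subunit genes named next had differences between -0.15 and 0.06. Mrps7, which organises the head of the small subunit, differed by 0.03 and Mrps2 by 0.06. Mrps22, also known from human mitochondrial disease, had 9.77 and 9.72 in wild type and 9.78 and 9.61 in null samples, with a difference of -0.05 and a 95% interval from -0.39 to 0.29. Mrps28 differed by 0.05. Mrps30, whose product is likewise found in the large subunit, differed by 0.06. Mrps27, a member of the pentatricopeptide repeat family of RNA-binding proteins, had 6.38 and 6.41 in wild type, and 6.56 and 5.92 in null samples, of which the second was the low one. It was above background on 7 of 8 arrays, and its difference of -0.15, with a 95% interval from -0.57 to 0.27, was the lowest of the 27 small subunit genes at the brightest probe. Mrps35 differed by -0.08, with non-overlapping samples of 9.26 and 9.20 against 9.17 and 9.13. Of 20 subunits listed for their roles, 18 were kept, and Mrpl44 and Mrps36 were not analysed here.

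Probes of the same gene did not always give the same direction. Several probes were kept for 17 genes (13 with 2, 3 with 3 and 1 with 4), and in 7 of the 17 all probes of the gene had 1 sign. The 95% intervals of the probes of a gene overlapped in each of the 17, and the median distance between the highest and lowest probe of a gene was 0.15. Agreement was close for Mrps18b (0.02 and 0.03), Mrps7 (0.01 and 0.03) and Mrps33 (0.08 and 0.13), and the 3 probes of Mrps31 lay below 0, from -0.22 to -0.06.

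The widest disagreements were those of Mrpl49 and Mrps25, which held the 3 probes with an unadjusted p under 0.05 besides Mrpl27. Mrps25, a small subunit protein specific to mitochondria, had 3 kept probes assigned to the same transcript accession. Its brightest probe had signals of 6.95 and 7.02 in wild type and 6.87 and 6.81 in null samples, a difference of -0.15 (SE 0.16, limma adjusted p = 0.931). A second probe had 6.65 and 6.31 in wild type and 6.76 and 6.94 in null samples, a difference of 0.37 (SE 0.17, unadjusted p = 0.0482, limma adjusted p = 0.703). The dimmest probe of Mrps25 was detected on 0 of 4 wild-type and on 4 of 4 null arrays, with 5.86 and 5.95 against 6.37 and 6.38. Its wild-type arrays lay between 5.83 and 6.02 and its null arrays between 6.26 and 6.48. For this probe the null mean was at least 1.32-fold higher than in wild type (limma adjusted p = 0.589). The probe was kept only because of its null arrays, so a higher null signal was a condition of its being tested. That limit takes, on each dim array, the higher of the lowest signal above background and the probe's own, and does not include sampling error. The 3 probes of Mrps25 therefore lay on both sides of 0, and which of them reads the transcript best was not tested.

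Mrpl49, of the large subunit, had 4 kept probes with differences of 0.00 (the brightest), -0.04, 0.29 and -0.39. The lowest of them had signals of 6.37 and 6.10 in wild type and 6.02 and 5.67 in null samples, and was above background on 4 wild-type arrays and 1 null array (SE 0.18, unadjusted p = 0.0433, limma adjusted p = 0.673). The brightest Mrpl49 probe was at 9.44 and 9.56 in wild type and 9.67 and 9.35 in null samples, which bracketed the wild-type samples.

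**Figure D4:**
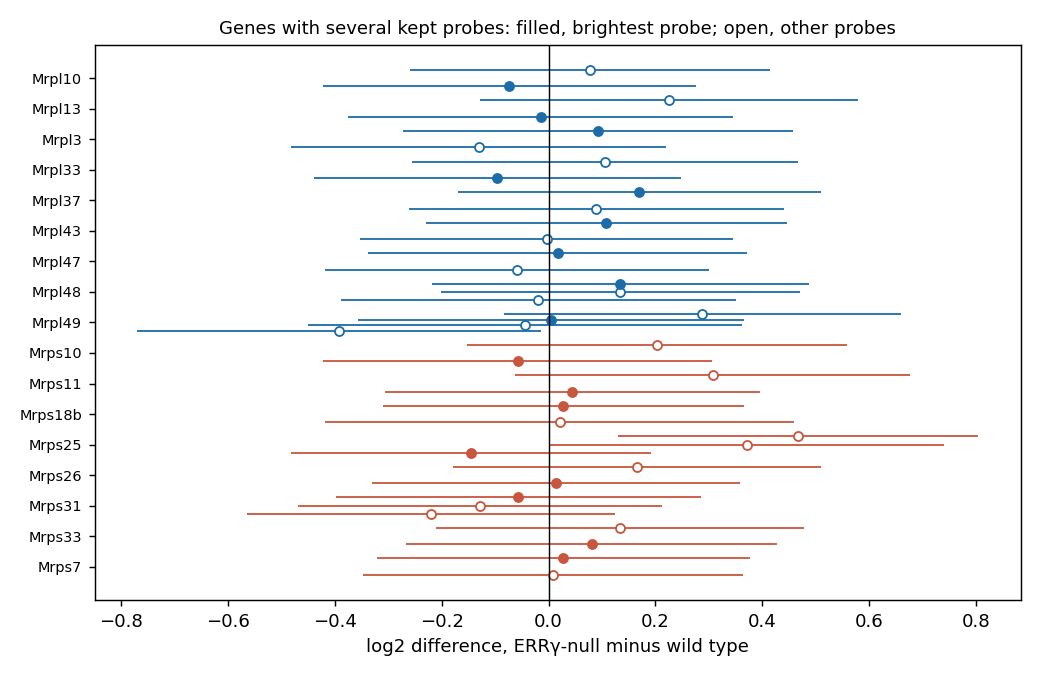
Log2 differences of each kept probe for the 17 genes with more than 1, large subunit in blue and small subunit in red. Filled points are the brightest probe of the gene, open points the others, and lines are 95% confidence intervals from limma. The probes of Mrps25 run from -0.15 to 0.47, the last fitted against wild-type arrays that were not above background, and those of Mrpl49 from -0.39 to 0.29.

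For 8 genes no probe was kept, namely Mrpl15, Mrpl19, Mrpl21, Mrpl32, Mrpl35, Mrpl39, Mrpl45 and Mrps14. Together with further probes of other members, 19 member probes were left out, of which 13 were not above background on any array. Mrpl39 was detected on 0 wild-type and 3 null arrays, with signals of 5.54 and 5.76 in wild type and 5.88 and 6.06 in null samples. Mrpl35 was detected on 2 wild-type and 0 null arrays, with 5.94 and 5.67 in wild type and 5.63 and 5.84 in null samples. Mrpl15 was above background on 1 null array and Mrps14 on 1 wild-type array. No fold is given for these genes, because the lowest signal above background on the dim arrays exceeded the mean of the other genotype.

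Subunits with a bacterial counterpart and subunits specific to mitochondria were described apart. The 41 kept genes with a counterpart had a median difference of 0.03, with 26 above 0, and the 26 specific genes a median of 0.02, with 17 above 0. In the large subunit 12 of 24 genes with a counterpart were above 0 (median 0.00), against 13 of 16 specific genes (median 0.07). In the small subunit the order was the other way round, with 14 of 17 genes with a counterpart above 0 (median 0.05) and 4 of 10 specific genes (median -0.03). These medians are smaller than the SE of a single gene, and the difference between the classes was not tested.

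The wider machinery of mitochondrial gene expression had values of the same size. Of 77 listed symbols, 61 had a probe and 48 were kept. Some of the 77 are older names of other listed genes or of a member (such as Mterfd1 for Mterf3), so fewer genes were listed. By limma 0 of the 48 were called, where 0.00864% of all kept probes were. At an unadjusted p under 0.05 there were also 0, where 6.46% of all kept genes had such a p. Their median difference was 0.02, with 27 above 0. Of further ribosome subunits whose symbols do not follow the Mrp pattern, Ptcd3, Chchd1 and Dap3 differed by 0.30, 0.08 and 0.04. Translation factors, which load the first codon, carry transfer RNA and release the finished chain, had a median of 0.05 over 9 genes, and Tufm, the elongation factor that delivers transfer RNA, differed by 0.03. The median was 0.01 for 13 assembly and RNA modification factors and 0.01 for 12 mitochondrial transfer RNA synthetases. Genes for transcription of mitochondrial DNA and for the stability of its messenger RNA had a median of -0.10 over 10 genes, with 7 below 0. Mtpap, the mitochondrial poly(A) polymerase, had the lowest of these values, with 8.82 and 9.15 in wild type and 8.40 and 8.82 in null samples (difference -0.38, limma adjusted p = 0.730). Mtpap was named after its values were seen, as were Tufm and the 3 further subunits. Letm1 was the only kept gene for membrane insertion and translational activation, with a difference of 0.10.

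The cytosolic ribosome and complex I of the respiratory chain, the machinery closest in kind and the main user of mitochondrial translation, had medians of 0.00 over 47 genes and 0.01 over 37 genes. For complex I these were genes with Nduf symbols, so its subunits encoded by mitochondrial DNA were not among them. In the cytosolic ribosome 24 of 47 genes were above 0 and in complex I 20 of 37, against 43 of 67 for the mitochondrial ribosome. No difference between these groups was tested.

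Array pairs showed how far the values of single genes varied between repeat measurements. The SD of the member genes' log2 differences had a median of 0.24 in the 4 pairs from the same sample. It was 0.27 in the 8 pairs that joined separate samples of a genotype and 0.26 in the 16 pairs that crossed the genotypes. Over all kept genes these medians were 0.28, 0.32 and 0.33. An SD over genes leaves out a shift shared by all of them, so it does not bear on the subunit means or medians. Apart from such a shift, the member genes differed about as much between samples of 1 genotype as between genotypes.

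Promoter sequences were searched for motifs of factors known to act on nuclear genes for mitochondria, on both strands. RefSeq windows of 300 bases (GRCm38.p6) matched 66 of the 75 genes with 72 start sites. The half-site bound by estrogen-related receptors, AAGGTCA, was in 4 of the 72 windows (5.56%), against 4.72% of all 32851 windows and 4.08% of those of protein-coding genes. The extended form TNAAGGTCA was in 0 of the 72, in 1.28% of all windows and in 1.03% of protein-coding ones. The ETS/GABP motif CCGGAAG was in 26 windows (36.1%), against 8.86% of all and 11.6% of protein-coding ones. The YY1 motif AANATGGCG was in 11 windows (15.3%, against 2.38% of all and 3.12% of protein-coding ones). The core of the NRF1 motif, GCATGCGC, was in 8 (11.1%, against 2.71% of all and 3.52% of protein-coding ones). TNAAGGTCA contains AAGGTCA, and no other motif searched contains another. A match is a run of letters and not a measured binding site, and no match says only that these letters are not in the window.

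The 4 genes with the ERR half-site are shown because they are the members whose windows hold the letters of the deleted receptor's half-site. These were Mrpl12 (chr11:120484387-120484686, plus strand), Mrpl36 (chr13:73330759-73331058, plus strand), Mrps15 (chr4:126046678-126046977, plus strand) and Mrps21 (chr3:95871465-95871764, minus strand), all in GRCm38.p6 and written 5′ to 3′ on the gene's strand. Capitals mark the half-site, which reads TGACCTT where it lies on the opposite strand.
Mrpl12: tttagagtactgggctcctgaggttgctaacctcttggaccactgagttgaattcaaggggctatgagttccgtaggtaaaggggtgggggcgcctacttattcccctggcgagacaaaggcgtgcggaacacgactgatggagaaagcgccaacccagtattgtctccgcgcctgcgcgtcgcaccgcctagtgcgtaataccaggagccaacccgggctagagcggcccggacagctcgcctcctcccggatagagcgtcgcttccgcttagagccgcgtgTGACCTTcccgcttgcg
Mrpl36: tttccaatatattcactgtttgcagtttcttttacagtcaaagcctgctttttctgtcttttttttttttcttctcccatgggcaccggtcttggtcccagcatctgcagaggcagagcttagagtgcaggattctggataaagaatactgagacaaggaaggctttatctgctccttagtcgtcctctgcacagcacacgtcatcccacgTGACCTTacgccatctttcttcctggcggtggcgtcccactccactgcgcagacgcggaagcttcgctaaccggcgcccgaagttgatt
Mrps15: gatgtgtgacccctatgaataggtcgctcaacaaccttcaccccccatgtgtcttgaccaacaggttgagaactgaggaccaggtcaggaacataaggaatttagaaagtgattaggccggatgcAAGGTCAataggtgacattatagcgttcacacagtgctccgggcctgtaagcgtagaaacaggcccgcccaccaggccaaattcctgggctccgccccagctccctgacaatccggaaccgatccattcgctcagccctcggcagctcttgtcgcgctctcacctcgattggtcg
Mrps21: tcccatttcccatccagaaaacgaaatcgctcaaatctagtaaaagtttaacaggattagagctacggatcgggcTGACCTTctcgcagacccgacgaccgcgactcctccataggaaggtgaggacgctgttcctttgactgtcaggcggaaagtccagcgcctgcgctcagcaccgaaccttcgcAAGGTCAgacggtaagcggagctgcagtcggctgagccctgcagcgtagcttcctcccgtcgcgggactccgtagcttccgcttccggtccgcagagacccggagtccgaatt

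The half-site began at position 34 after the gene start in Mrpl12, at -39 in Mrpl36, at -125 in Mrps15, and at -175 and -63 in Mrps21. All 4 genes were above background on all 8 arrays, and their differences lay between -0.06 and 0.02. Mrpl36, of the large subunit, had 9.65 and 9.61 in wild type and 9.64 and 9.49 in null samples, with a difference of -0.06 (95% interval from -0.41 to 0.28). Mrps15, of the small subunit, had 7.96 and 7.82 in wild type and 7.85 and 7.96 in null samples, with a difference of 0.02 (95% interval from -0.33 to 0.36). Mrps21, which has a bacterial counterpart, had 9.29 and 9.23 in wild type and 9.30 and 9.18 in null samples, with a difference of -0.02 (95% interval from -0.36 to 0.32). In these 3 genes, as in Mrpl12, the samples of the genotypes overlapped. Genes with the ETS/GABP motif and a kept probe (25) had a median difference of 0.04, those with the YY1 motif (10) 0.02 and those with the NRF1 core (6) -0.05.

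The 75 genes lie on 17 chromosomes in the RefSeq gene table, most often on chromosome 11 (11 genes). On chromosome 1, which carries Esrrg, lie 4 members, Mrpl15, Mrpl30, Mrps9 and Mrps14, and 0 of them are among the 50 nearest genes on either side of Esrrg. Of these, Mrpl30 differed by 0.16 and Mrps9 by 0.27.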

How the data were processed

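Total RNA of newborn cortex was extracted with Trizol, cleaned on columns with DNase I and labelled with biotin for Illumina arrays, per the labels' protocols. The authors deposited, per the file headers, 1 mean bead intensity and 1 detection p-value per probe and array. The intensities are linear and, as far as the values show, neither background-subtracted nor normalized. The submitters' processing notes name GenomeStudio, with no version or settings. A second deposited table held intensities brought to 1 common distribution (column medians from 142.5 to 142.7), whose method is unknown, and served as an alternative.

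In R 4.3.3 with limma 3.58.1, neqc (normexp through the detection p-values, offset 16, quantile normalization, log2) was applied, probes were filtered as stated, arrays of a sample averaged, and genotypes compared with lmFit and eBayes, in a two-sided test whose p-values were Benjamini-Hochberg adjusted across the kept probes (prior degrees of freedom 12.7, residual 2). An exact permutation test of 2 against 2 samples cannot go below p = 0.333 and was not used. Of 25697 probes, 23846 had 1 gene symbol, 0 several and 1851 none, and symbols are those of the platform annotation. Named members were those with an unadjusted p under 0.05, up to 4 per subunit and direction with non-overlapping samples, subunits of known role, genes with several kept probes and undetected members. Members, lists and tests were chosen with earlier results of these data known. Of these steps, only the comparison with limma was tested on simulated data, drawn at the level of samples.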

Additional observations from a re-analysis of the deposited data

How the results depend on the processing

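No member probe or gene was called by limma in the main analysis or in any of 20 alternatives (0 calls in each), and the smallest adjusted p of a member in any of them was 0.264, with the arrays scaled to 1 median. That scaling moved the median of all genes by 0.17. It gave medians of 0.22 for each subunit, which are 0.05 (large) and 0.04 (small) above that of all genes, put 64 of 67 members above 0, and raised the share of higher probes among all at an unadjusted p under 0.05 from 50.5% to 94.2%. The count of all probes called, 1 in the main analysis, was 5 with median scaling, 12 with the replicate block, and 0 with no filter, with detection on all 8 arrays, with the first arrays alone, with the b arrays alone, with robust eBayes and with the mean of a gene's probes. It was 0 to 1 with 1 sample left out, and 0 without wild-type sample 2 or ERRγ-null sample 2. With the replicate block 3 member probes had an unadjusted p under 0.05, and nothing is read from it, since the labels do not pair the samples and same-numbered samples did not deviate together (correlation of deviations -0.01). The count of member probes at an unadjusted p under 0.05, 4 in the main analysis, was 11 with median scaling (all of them higher, where 12.01% of all probes had such a p), 1 with detection on all 8 arrays, 2 with detection p under 0.01, with an offset of 50, with the first arrays alone and with all 8 arrays and the sample as a random block, 1 with the brightest probe or the mean of probes per gene, and 1 to 5 with 1 sample left out. With 1 sample left out, the lone sample is assumed to vary like the other genotype, and the large subunit median ran from -0.00915 to 0.0819 and the small subunit median from -0.0103 to 0.113. Of 560 differences of the 30 named probes under an alternative, 526 kept their sign and 34 did not. Many of the 560 could not change. Alternatives in the filter, the variance model, the blocking, the choice of brightest probes or the threshold return the main difference. The sign could move only with another normalization or offset, with 1 array per sample or with 1 sample left out. The cause of these shifts was not tested. Detection limits the members that were not kept and the dim probes of Mrps25 and Mrpl49, whose signals lie at or near background.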
